A study of Homo sapiens with 6 samples.

Results

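The genes described here are 10 components of Wnt signalling in the human ovarian cancer cell line SKOV3: the Frizzled receptor genes FZD2, FZD5, FZD6, FZD7 and FZD8, the co-receptor gene LRP6, the R-spondin receptor gene LGR4, the Dickkopf genes DKK1 and DKK3, and the response gene AXIN2. All but FZD8 are among the 19775 genes with a probe set annotated to them alone, and every such probe set of these 9 was used, 24 in all. The 10 genes were chosen by a reading of the miR21 minus control differences on these same arrays. Those differences are therefore given as a description, without a test. SKOV3 cells received a miR21 precursor at 5 nM (3 arrays) or a negative control precursor (3 arrays), and RNA was taken 24 h later. Both groups are therefore transfected cells of 1 line, and the series title places the microRNA in transfer from stromal cells and in taxol resistance. No measurement of mature miR-21 was used here, and the labels do not say whether replicates 1, 2 and 3 are separate cultures.

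Wnt proteins bind a Frizzled receptor together with LRP5 or LRP6, which stops the destruction complex from degrading beta-catenin. Beta-catenin then acts with TCF and LEF factors on target genes, among them AXIN2, which encodes a scaffold of the destruction complex, and DKK1, whose secreted product binds LRP6 and blocks the co-receptor. R-spondins acting through LGR4 protect Frizzled receptors from removal by the ubiquitin ligases ZNRF3 and RNF43. DKK3 is a divergent Dickkopf protein that does not share the LRP6 blocking activity of DKK1.

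The microRNA that was delivered is shown with its seed, bases 2 to 8, in capitals. The promoters of the genes with the highest and the lowest difference follow, 300 bases each, from 250 before the transcription start to 50 after it. Capitals in the promoters mark TCF/LEF heptamers, which are CTTTG followed by AA, AT, TA or TT, searched on both strands. The sequences are from RefSeq, build GRCh38.p14: the microRNA lies at chr17:59841273-59841294 on the plus strand, the FZD5 window at chr2:207769857-207770156 on the minus strand and the DKK1 window at chr10:52314031-52314330 on the plus strand.
hsa-miR-21-5p: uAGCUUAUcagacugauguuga
FZD5 promoter: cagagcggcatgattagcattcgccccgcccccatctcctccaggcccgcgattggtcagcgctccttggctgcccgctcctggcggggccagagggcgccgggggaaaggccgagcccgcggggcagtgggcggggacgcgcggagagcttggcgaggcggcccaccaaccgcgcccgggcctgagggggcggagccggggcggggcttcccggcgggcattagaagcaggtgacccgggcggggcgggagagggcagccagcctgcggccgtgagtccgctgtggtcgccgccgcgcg
DKK1 promoter: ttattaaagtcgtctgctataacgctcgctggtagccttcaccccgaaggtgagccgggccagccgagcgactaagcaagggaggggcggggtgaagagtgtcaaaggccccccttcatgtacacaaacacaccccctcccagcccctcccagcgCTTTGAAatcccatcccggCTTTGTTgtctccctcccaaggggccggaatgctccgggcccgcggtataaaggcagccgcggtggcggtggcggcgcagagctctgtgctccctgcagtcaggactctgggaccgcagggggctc

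The DKK1 window held 2 of the heptamers on the strand of the gene. CTTTGAA began 95 bases before the start and CTTTGTT 76 bases before it. The FZD5 window held none of the 4 heptamers. Of 35116 promoter windows of the same length, 13.8% held at least 1 and 1.58% held 2 or more. Such a match is a description of the sequence, and binding was not measured here.

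The values are MAS5 signals, a linear intensity per probe set. Each array has a mean of about 500 after trimming 2% at both ends, so a change common to most genes cannot be seen. A gene is represented by its brightest probe set over the 6 arrays, and probe sets below the median of all (a signal of 65.5) are called dim. Of the 24 probe sets 16 were above this level, and 9 of the 10 genes were represented. FZD8 is named by 3 probe sets that also name MIR4683, and no value is attributed to it. The number 1 arrays stood apart in both groups: their median signals were 117 with miR21 and 125 with control, against 55.2 to 61.8 on the other arrays, and the first principal component (65.2% of the variance) separated them. Of 9 markers of an epithelial ovarian cancer line, 7 were above the dim level, and WT1 and MUC16 were below it.

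In limma 0 of 12206 genes (0%) passed an adjusted p of 0.05, and 298 (2.44%) had an unadjusted p under 0.05. With the replicate number as a block 4 genes passed (0.0328%), and 2451 (20.1%) had an unadjusted p under 0.05. FZD5 stands among those 4, which is no test of it, since it was chosen on this contrast. The groups did not overlap for 2 of the 9 genes, FZD5 and DKK3, against 6.65% of all genes. FZD5 and AXIN2 were higher with miR21 in all 3 numbers, as were 20.3% of all genes, and DKK1 and DKK3 were lower in all 3, as were 20.9%. FZD5 and DKK1 differed by over 1 log2 unit, as did 4.42%. The median log2 difference of the 9 genes was -0.01, and that of all genes was -0.01. These counts rest on the contrast that chose the genes, and nothing is read from them.

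**Figure D1:**
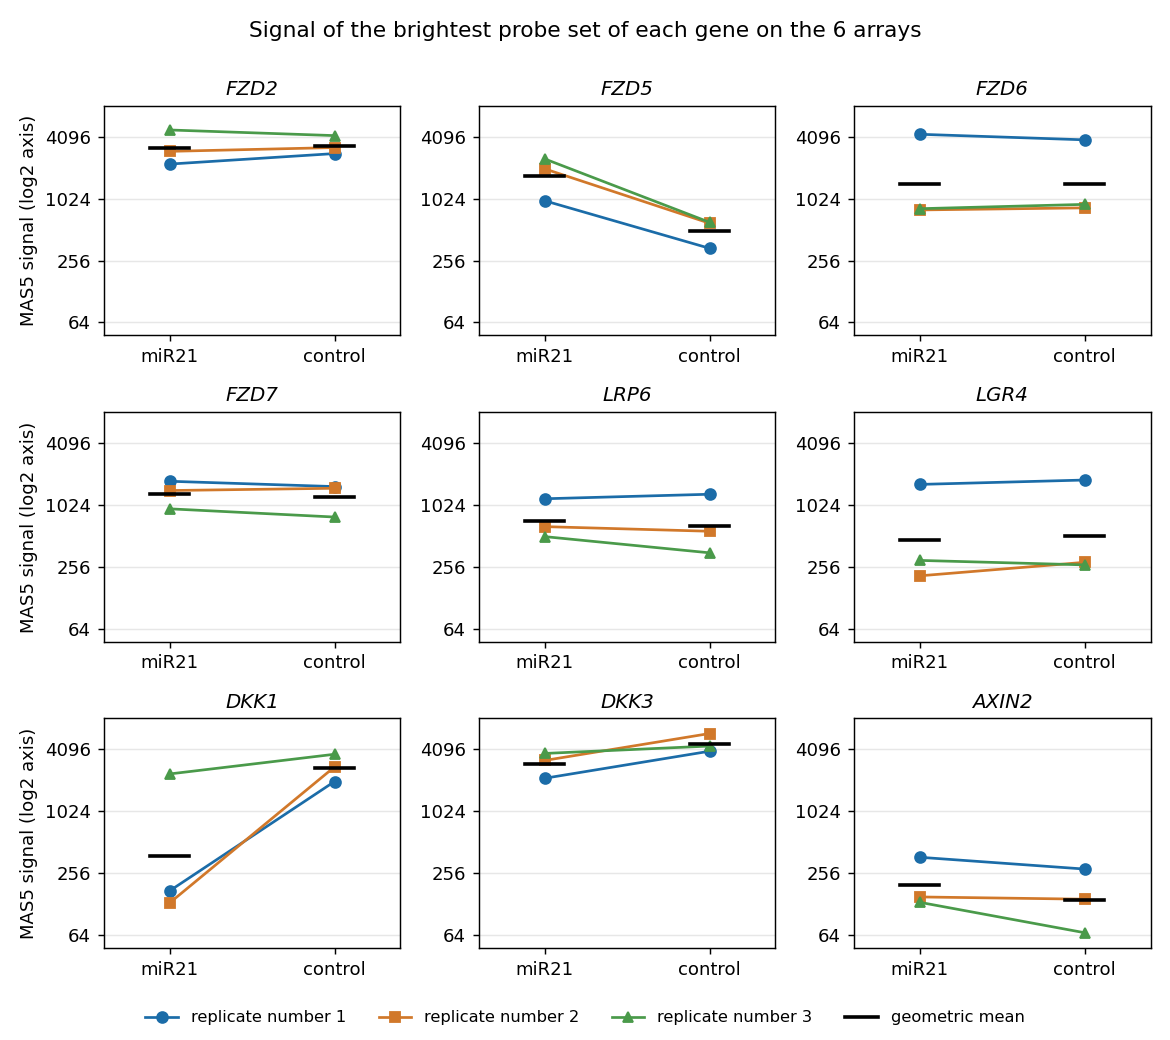
MAS5 signal (log2 axis) of the brightest probe set of 9 genes on the miR21 and control arrays; lines join arrays of the same replicate number and black bars are geometric means of 3 arrays. FZD5 is higher and DKK1 and DKK3 are lower with miR21 in all 3 numbers, while FZD6 and LGR4 are set apart by the number 1 arrays in both groups.

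FZD5, a Frizzled receptor gene, had the highest log2 difference of the set. Its brighter probe set (221245_s_at) read 976, 1995 and 2492 on the miR21 arrays of numbers 1, 2 and 3, against 337, 590 and 603 on the control arrays. Every miR21 array was above every control array. With miR21 the signal was 3.43-fold higher, a log2 difference of 1.78 (SE 0.44, and SE 0.17 with the replicate block). The ratio was similar within each number, 2.90-fold in number 1, 3.38-fold in number 2 and 4.13-fold in number 3, although the number 1 arrays were the dimmest of both groups. Without the number 1 arrays the log2 difference was 1.90. By absolute size it ranked 56 among the 12206 genes.

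The dim FZD5 probe set (206136_at) did not show this. It read 29.8, 63.5 and 82.6 with miR21 and 11.5, 73.2 and 82.2 with control, so the groups overlapped. Its log2 difference was 0.39 (SE 0.94), with 1.37 in number 1, -0.21 in number 2 and 0.01 in number 3. The mean of both probe sets differed by 1.09.

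DKK1, which encodes the secreted LRP6 antagonist, had the lowest log2 difference of all 12206 genes. Its probe set (204602_at) read 173, 132 and 2366 on the miR21 arrays, against 1997, 2771 and 3677 on the control arrays of numbers 1, 2 and 3. The miR21 arrays of numbers 1 and 2 lay far below all control arrays, whereas the miR21 array of number 3 lay above the lowest control array. The signal was 7.23-fold lower with miR21 (log2 difference -2.85, SE 1.01, and SE 0.61 with the block). That average joins unlike values: DKK1 was 11.6-fold lower in number 1, 21.0-fold lower in number 2 and 1.55-fold lower in number 3. On the log2 scale the difference was -2.51 without the number 1 arrays, -2.08 without those of number 2 and -3.96 without those of number 3. DKK1 had no other probe set with which to compare these values.

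DKK3, a secreted Dickkopf family protein, was read by 6 probe sets. The brightest (214247_s_at) read 2148, 3201 and 3745 with miR21, against 3935, 5848 and 4416 with control. All miR21 arrays lay below all control arrays, by a narrow margin between the number 3 miR21 array and the number 1 control array. The signal was 1.58-fold lower with miR21 (log2 difference -0.66, SE 0.32, and SE 0.17 with the block). Within numbers 1, 2 and 3 the log2 differences were -0.87, -0.87 and -0.24, so number 3 again held the smallest. Without the number 1 arrays it was -0.55. A further probe set (230508_at) read 274, 402 and 563 with miR21, against 708, 943 and 788 with control, a log2 difference of -1.03 (SE 0.38). Its groups did not overlap either, and it was lower within each number.

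The other bright DKK3 probe sets were lower in numbers 1 and 2 only. One (202196_s_at) read 323, 213 and 399 with miR21 and 628, 464 and 364 with control, a difference of -0.65. The other (221127_s_at) read 180, 95.5 and 133 with miR21 and 254, 161 and 132 with control, a difference of -0.41. Of the dim ones, 207875_at differed by -3.02 at signals between 0.594 and 38.5, and 221126_at by 0.54 at signals between 1.00 and 42.4. MAS5 signals this low are noisy on the log scale, and their size is not read.

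**Figure D2:**
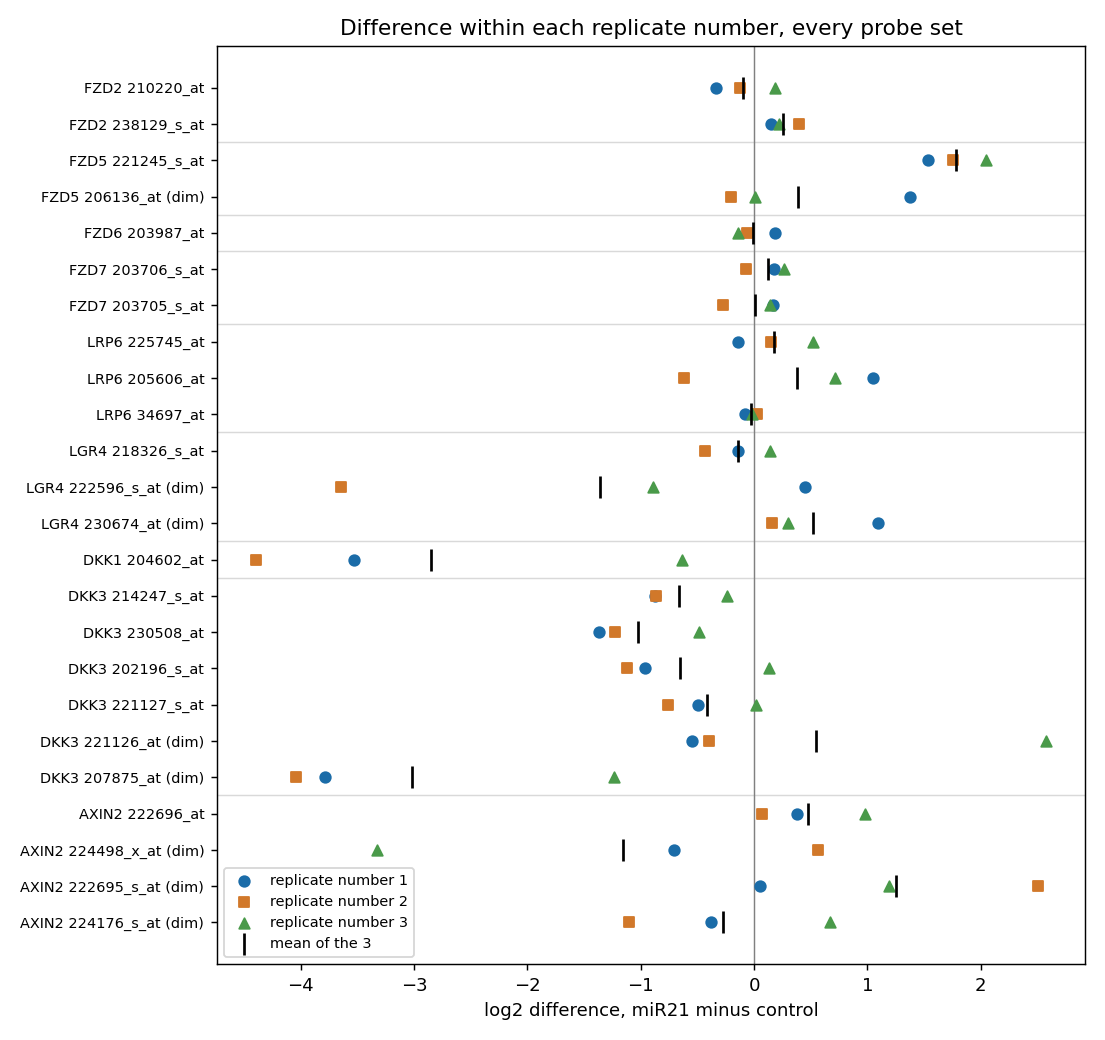
Log2 difference, miR21 minus control, within replicate numbers 1, 2 and 3 for all 24 probe sets, with the mean as a black tick; dim marks a mean log2 signal below the median of all probe sets. FZD5 221245_s_at lies between 1.54 and 2.05 in the 3 numbers, while DKK1 lies at -3.53 and -4.39 in numbers 1 and 2 and at -0.64 in number 3.

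On their brightest probe sets FZD2, FZD6 and FZD7, the other Frizzled genes of the set with values, had log2 differences between -0.09 and 0.12. FZD2, a receptor linked to both beta-catenin and WNT5A signalling, read 2219, 2950 and 4761 with miR21, against 2808, 3212 and 4198 with control (log2 difference -0.09, SE 0.36). Its second probe set differed by 0.26, and was higher within each number. The groups overlapped for both. The probe sets took opposite signs, and with the arrays centred on their median signal the first was at 0.0059.

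FZD7, a Frizzled receptor often studied in epithelial cancers, read 1742, 1415 and 940 with miR21 and 1547, 1489 and 782 with control (log2 difference 0.12, SE 0.39). Its other probe set differed by 0.01. In both, number 2 had the opposite sign to numbers 1 and 3.

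FZD6, a receptor of planar polarity signalling, read 4325, 795 and 817 with miR21 and 3818, 833 and 900 with control. Its log2 difference was -0.01, with SE 0.82 without the block and SE 0.15 with it. The number 1 arrays were 5.37-fold above the other miR21 arrays and 4.41-fold above the other control arrays. Within a number the differences lay between -0.14 and 0.18, and without the number 1 arrays their mean was -0.10.

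LGR4 showed the same arrangement. It read 1623, 210 and 296 with miR21 and 1790, 284 and 268 with control, a log2 difference of -0.14 (SE 0.97, and SE 0.20 with the block). The number 1 arrays were 6.51-fold above the others with miR21 and 6.49-fold above them with control. Without the number 1 arrays the difference was -0.15. The dim LGR4 probe sets differed by -1.36 and 0.52 and did not have 1 direction.

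LRP6, the co-receptor that DKK1 binds, was read by 3 probe sets above the dim level. The brightest read 1177, 631 and 505 with miR21 and 1302, 569 and 351 with control (log2 difference 0.18, SE 0.55). The others differed by 0.38 and -0.02. Without the number 1 arrays the first was at 0.34. None had groups that stood apart, and the number 1 arrays were the brightest of the main probe set in both groups.

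AXIN2, widely used as a readout of beta-catenin activity, read 367, 151 and 134 with miR21, against 282, 143 and 67.7 with control. It was higher within each number, by 0.38, 0.07 and 0.98, and averaged a log2 difference of 0.48 (SE 0.65, and SE 0.30 with the block). The groups overlapped, and the number 1 arrays were again the brightest. Without them the difference was 0.53. Its 3 dim probe sets differed by -1.16, 1.25 and -0.27. Of these, 222695_s_at had groups that did not overlap, with 27.9, 47.0 and 29.4 with miR21 and 26.9, 8.27 and 12.9 with control. Among all 54613 probe sets, 5.50% did not overlap.

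**Figure D3:**
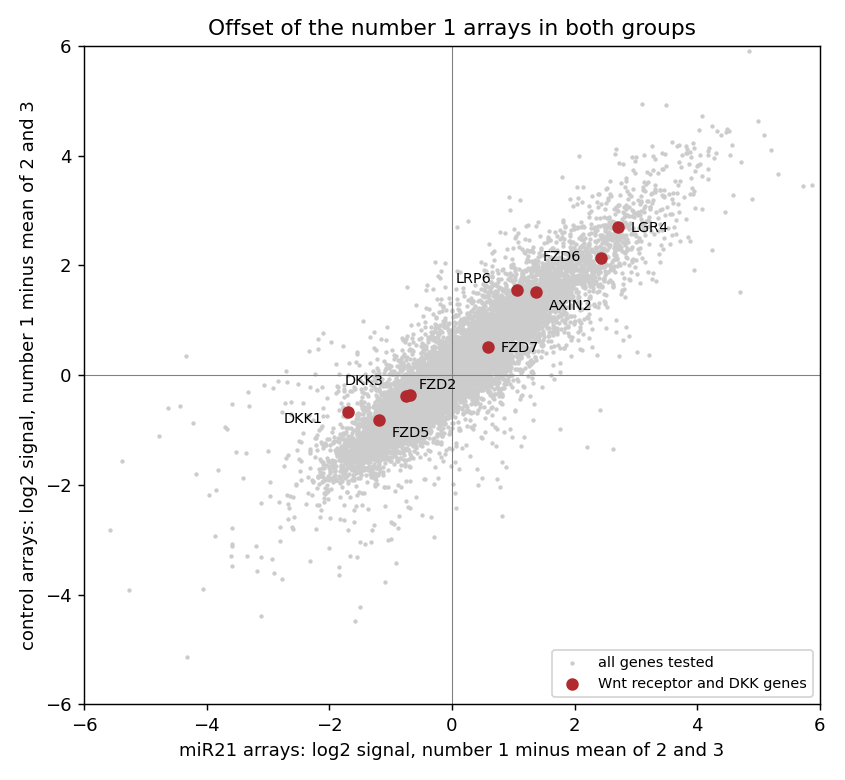
For 12206 genes (grey) and 9 Wnt receptor and DKK genes (red), log2 signal of the number 1 array minus the mean of numbers 2 and 3, on miR21 arrays (x axis) and control arrays (y axis). LGR4 (2.70 and 2.70) and FZD6 (2.42 and 2.14) lie high on both axes, while DKK1 (-1.69 and -0.68) and FZD5 (-1.19 and -0.83) lie below 0 on both.

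Set against all genes, the offset of the number 1 arrays placed LGR4 at percentile 97.5 on the miR21 arrays and 97.8 on the control arrays. FZD6 lay at 96.2 and 95.2, AXIN2 at 87.2 and 89.1, and LRP6 at 82.2 and 89.5 in the same order. The median offset of all genes was -0.05 with miR21 and -0.02 with control. For each of these 4 genes the offset in both groups was larger in absolute size than the difference between the precursors. The same held for FZD2 (offsets of -0.76 with miR21 and -0.39 with control, against a difference of -0.09). It also held for FZD7 (0.59 and 0.52, against 0.12). Summed signals of the 3 endothelial markers were also higher on the number 1 arrays, at 500 on the number 1 miR21 array against 63.3 and 71.5 on the other miR21 arrays, and 652 against 73.9 and 98.1 in the control group. Summed signals of the 4 fibroblast markers were 1209 on the number 1 miR21 array against 299 and 301, and 1037 on the number 1 control array against 375 and 444. The sums of the 3 measured leukocyte markers were 123 on the number 1 miR21 array against 19.6 and 21.7, and 201 on the number 1 control array against 60.3 and 71.1. The sums of the 9 epithelial markers were lowest on the number 1 array of each group. Single markers did not all follow. The epithelial marker EPCAM was highest on the number 1 arrays. It read 11913 against 5319 and 4941 with miR21, and 9353 against 4907 and 4022 with control. PECAM1 carried most of the endothelial sum, at 397 on the number 1 miR21 array and 483 on the number 1 control array. CDH5 was lower on the number 1 control array, at 10.2 against 20.6 and 36.0. So was the leukocyte marker CD14, at 6.30 against 20.3 and 29.8. COL1A2 read 160 on the number 1 miR21 array against 51.4 and 154, and 172 on the number 1 control array against 130 and 167. Of the 10 endothelial, fibroblast and measured leukocyte markers, PECAM1, COL1A1 and COL1A2 were above the dim level and the others below it. What part any of this has in the offset was not tested.

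Of 107 other listed Wnt pathway genes, 70 were measured. In limma 0 of the 70 passed in either direction, with or without the block (0% and 0.0328% of all genes passed). At an unadjusted p under 0.05 stood 3 genes without the block, 2 higher and 1 lower, and 10 with it, 6 higher and 4 lower. The 10 are 14.3% of the 70, a smaller share than the 20.1% of all genes. Without the block the comparison goes the other way: 3 of 70 is a larger share than the 2.44% of all genes. Of the 70, 21.4% were higher in all 3 numbers and 14.3% lower, against 20.3% and 20.9% of all genes. The groups did not overlap for 6 (8.57%), against 6.65% of all genes, and the median log2 difference was 0.07, against -0.01 over all genes.

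Among 9 measured ligands the median difference was -0.22, with 0 higher and 2 lower in all 3 numbers (20.3% and 20.9% of all genes). The secreted ligand gene WNT10A read 284, 428 and 1389 with miR21, against 1425, 1854 and 1720 with control (log2 difference -1.58, SE 0.57, limma adjusted p = 0.9999, and adjusted p = 0.124 with the block). WNT7A, another ligand gene, read 348, 383 and 1605 with miR21, against 1340, 1099 and 1838 with control (-1.22, adjusted p = 0.138 with the block). Neither ligand passed the test. Both ligands and DKK1 had their smallest difference in number 3, at -0.31 for WNT10A and -0.20 for WNT7A. This is not particular to Wnt genes, and its share over all genes was not counted. ADAMTS1, outside the lists, differed by -3.60, -2.97 and -0.28 in numbers 1, 2 and 3. With the block, 4004 of all genes passed without number 3, against 4 with it.

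The 8 other receptor genes had a median of 0.13. They, and so the 70 genes, include SMO (-0.34), a Frizzled-related gene of the Hedgehog rather than the Wnt pathway. FZD3, a Frizzled gene known from axon guidance, read 2216, 3380 and 1978 with miR21, against 1313, 1431 and 1597 with control, without overlap (log2 difference 0.77, limma adjusted p = 0.134 with the block). Its 4 probe sets above the dim level differed by 0.55, 0.77, 0.83 and 0.88. FZD4, a receptor for norrin as well as Wnt ligands, read 255, 213 and 343 with miR21, against 410, 356 and 388 with control (-0.54, adjusted p = 0.249 with the block). So the Frizzled genes measured here ranged from -0.54 for FZD4 to 1.78 for FZD5.

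The 5 other inhibitor genes had a median of 0.27, against -2.85 for DKK1 and -0.66 for DKK3. KREMEN2, a receptor for Dickkopf proteins, differed by 0.68 and KREMEN1 by 0.27, and the Wnt-binding antagonist SFRP1 by 0.28. The dim SFRP1 probe sets differed by -1.27, -0.43 and 1.28. On their representing probe sets all 5 genes lay above 0, a direction whose share over all genes was not counted. None passed. Of the 2 measured genes of the R-spondin axis, LGR6 differed by -0.46 and ZNRF3, the ligase that removes Frizzled receptors, by 0.03.

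Both measured genes of Wnt secretion were higher in all 3 numbers, as were 20.3% of all genes, and a list of 2 genes shows no more than their own values. WLS, the carrier that brings Wnt proteins to the cell surface, differed by 0.74, and its other bright probe sets by 0.63 and 0.71 (limma adjusted p = 0.168 with the block). TMED5, a cargo receptor of the early secretory pathway, differed by 0.76 (adjusted p = 0.0970 with the block), but its other bright probe sets ranged from -0.35 to 0.11. Neither passed.

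The 18 measured transducers had a median of 0.16. CTNNB1, the beta-catenin gene, read 8834, 5475 and 7447 with miR21, against 5228, 4625 and 4502 with control (log2 difference 0.58, limma adjusted p = 0.141 with the block). Its other bright probe sets differed by 0.31 and -0.04. DVL1, which relays the signal from Frizzled receptors, differed by 0.40. The 10 nuclear factors had a median of 0.08, with the corepressor genes TLE3 at 0.37 and TLE4 at 0.31. Other bright TLE3 probe sets differed by 0.42, 0.22 and -0.09, and the dim ones of TLE4 ranged from -1.03 to 0.23.

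The 7 measured response genes besides AXIN2 had a median of -0.08 and went both ways. MYC differed by -0.54 (limma adjusted p = 0.141 with the block), and NKD2, a feedback inhibitor that binds Dishevelled, by 0.70. CCND1 differed by 0.56 (limma adjusted p = 0.158 with the block). The 10 planar polarity genes had a median of -0.16, with DAAM1 at -0.43 and CELSR2 at 0.32. None of these passed the test.

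**Figure D4:**
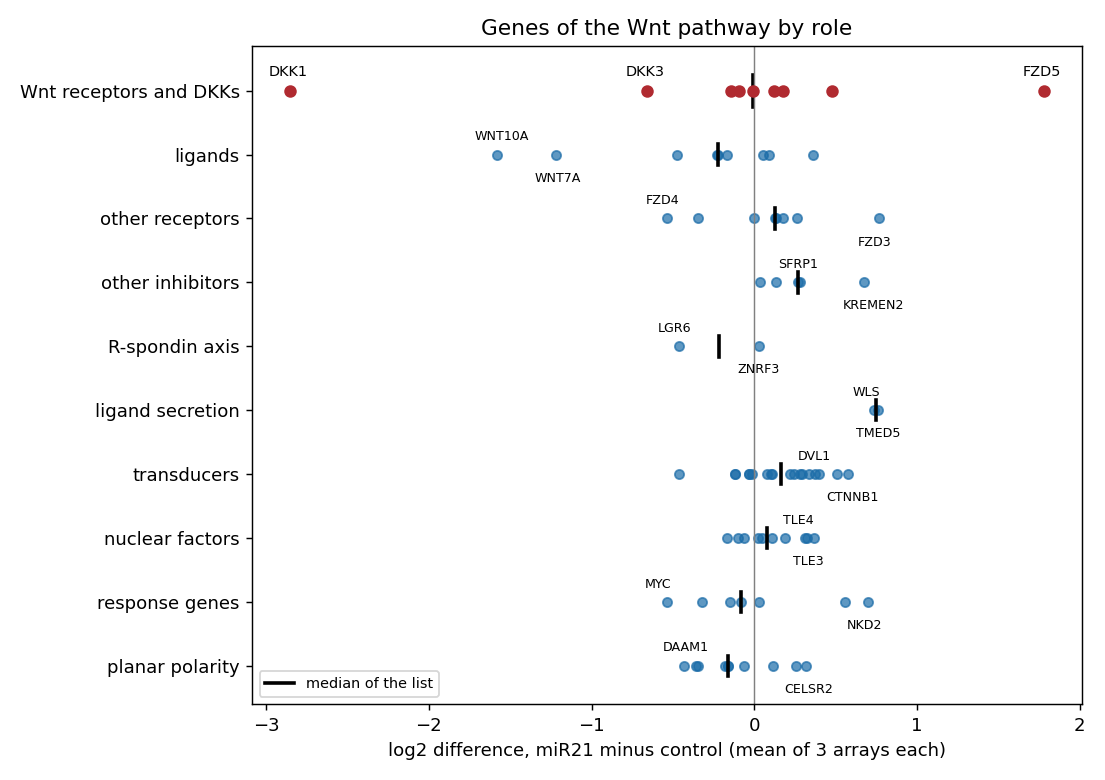
Log2 difference, miR21 minus control, of 9 Wnt receptor and DKK genes (red) and of 70 other measured Wnt pathway genes (blue) by role, with the median of each list as a black bar. DKK1 (-2.85) and FZD5 (1.78) lie outside the range of the 70 other genes, from -1.58 (WNT10A) to 0.77 (FZD3). The 9 genes were chosen on this same contrast, so their position is a description and no test.

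The genes whose log2 signals followed DKK1 most closely over the 6 arrays were P3H2, a collagen prolyl hydroxylase gene (Pearson r = 0.996), the basement membrane collagen gene COL4A1 (0.995), the replication gene GINS1 (0.995) and the condensin gene NCAPH (0.994). P3H2 read 1470, 1494 and 6519 with miR21, against 5604, 6159 and 7921 with control. Without the miR21 arrays of numbers 1 and 2, the farthest from the median of DKK1, these r were 0.914, 0.930, 0.731 and 0.917 over 4 arrays. FZD5 was followed most closely by the kinase gene DYRK2 (r = 0.986), the exocyst gene EXOC2 (0.980), ACTR8 (0.973) and KLHL18 (0.969). DYRK2 read 1425, 1848 and 1877 with miR21, against 757, 1057 and 1097 with control. Without the miR21 arrays of numbers 2 and 3, the farthest from the median of FZD5, the r with FZD5 were 0.999, 0.945, 0.907 and 0.891 over 4 arrays. The correlations over 6 arrays describe arrays that share groups and replicate numbers, and are the highest of 12205 genes searched.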

How the data were processed

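Signals of 6 arrays with 54675 probe sets were used. The deposited intensity values are linear and were made with MAS5, per the submitters' processing notes, whose version is not given in the sources used here. From them log2 signals were computed without a pseudocount. The 62 control probe sets were left out. The 1801 that name several genes and the 11721 that name none could not stand for a gene. They stayed in the median of all and in results over all 54613 probe sets. The brightest probe set on average stood for each gene, if at or above that median (log2 6.03). The groups were compared with limma 3.58.1 in R 4.3.3 (eBayes with a variance trend) over 12206 genes, with Benjamini-Hochberg adjustment at 0.05. SEs of representing probe sets come from this fit and those of others from a fit over all 54613. The steps were also run on simulated data with known differences. The outcome is not given here, and nothing is read from it.

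The members and lists were chosen with earlier results of these data known. Named pathway genes are those of smallest p without the block in each list, 2 per list where none passed. KREMEN1 and CCND1 were added after their values were seen. Replicate numbers come from the titles. Deviations of same-numbered arrays from their group means correlated at 0.899, 0.638 and 0.635, and those of different numbers between -0.754 and 0.411. Deviations within a group sum to 0, so positive values for the same number push those of different numbers down. The contrast therefore does not show pairing for each number. The fit with the block takes the numbers to pair the arrays. The main fit does not use the numbers, so its SEs include the spread between them. P-values measure only the spread between these arrays, which may be technical. The number of arrays limits the precision.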

Additional observations from a re-analysis of the deposited data

How the results depend on the processing

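In limma the count of called genes was 0 under quantile normalization, median centring, 16 added to each signal, no filter, an upper quartile filter, no variance trend, the mean of all probe sets, every probe set, and each array left out. With the replicate block it was 4, and with the block and both arrays of a number left out it lay between 0 (number 2) and 4004 (number 3), with 59 without number 1. Those fits have 1 residual degree of freedom. The count of other pathway genes was 0 in each of these settings except the block without number 3, where it was 20, so its range was 0 to 20.

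Leaving out arrays moved the log2 differences from -4.18 (without miR21 replicate 3) to -2.08 for DKK1, from -0.87 to -0.43 for DKK3 and from 1.50 to 2.18 for FZD5, with the direction kept. The sign turned for the others: the ranges were -0.39 to 0.16 for FZD2, -0.82 to 0.70 for FZD6, -0.20 to 0.37 for FZD7, -0.26 to 0.69 for LRP6, -1.05 to 0.76 for LGR4 and -0.045 to 0.98 for AXIN2. Median centring gave 0.0059 for FZD2 and 0.091 for FZD6, and the mean of all probe sets gave 0.081 for FZD2. With the block, FZD2 differed by 0.030 without number 1, FZD6 by 0.021 and LGR4 by 0.0016 without number 2, and FZD6 by 0.057 without number 3. The cause was not tested. MAS5 signals below the median of all probe sets limit what dim probe sets show.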
